A study of Mus musculus with 20 samples.

Results

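The corticosteroid receptors and the corticotropin-releasing hormone (CRH) system were represented by 9 genes, Nr3c1, Nr3c2, Crh, Crhr1, Crhr2, Crhbp, Hsd11b1, Fkbp4 and Ncoa1. They are 9 of the 27384 genes named on the array, and their probes were found by gene symbol. Every non-control probe with such a symbol was kept, which gave 13 of the 39429 probes. Gene expression was measured in a slice of the frontal pole of male Swiss–Webster mice that were 12 weeks old when they were moved to single cages. Stressed mice were placed in the cage of a group of unfamiliar males and were killed 24 hours after the last encounter following acute stress (a single encounter), 8 days of stress or 13 days of stress, and the fourth group had 13 days of stress + 5 days of rest. Each group had its own undisturbed control group of brothers, which was equally singly housed, so all comparisons are between isolated mice. Stressed and control mice were kept in adjacent rooms, and an effect of the room cannot be told apart from that of stress. RNA of 3 mice was pooled, and a stress pool was hybridised together with a control pool on a dual-colour Agilent array, with 3 pairs of pools per time point. The arrays analysed here numbered 20, from 12 pairs. Of pool 1 the array with stress in Cy5 was analysed at each time point, and of pools 2 and 3 both the original array and its dye swap, while dye swaps of pool 1 were not analysed here. Pools of the same number shared slides at all time points, with pools 1 on slide 1, pools 2 on slides 2 and 3 and pools 3 on slides 4 and 5, and the pools 3 were scanned on a second day.

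Corticosterone, the main glucocorticoid of mice, enters the brain and binds to 2 nuclear receptors, the mineralocorticoid receptor (Nr3c2) with high affinity and the glucocorticoid receptor (Nr3c1) with lower affinity. Before the hormone binds, the glucocorticoid receptor is held by heat shock proteins and by immunophilins such as Fkbp4, and afterwards it moves to the nucleus and recruits coactivators such as Ncoa1. Hsd11b1 regenerates active corticosterone from its inert 11-keto form inside the cell. Crh, the peptide that starts the endocrine stress response in the hypothalamus, is also made by cortical interneurons, and acts on Crhr1 and Crhr2, while Crhbp binds and holds the free peptide.

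No member probe was called at any time point. A probe was called when its Benjamini-Hochberg adjusted p in limma was under 0.05 and its log2 ratio of stress to control was over 0.5 in size, and the percentage of all probes called was 0.00254 for acute stress, 0 for 8 days, 0.0228 for 13 days and 0 for 13 days + rest. It was 0.0127 for the mean of the 4 time points, 0.00254 for the difference of 13 days minus acute stress and 0 for rest minus 13 days, and 0 of 13 member probes were called in each of these contrasts as well. The smallest adjusted p of a member was 0.332, for Hsd11b1 in the mean of the time points. Member estimates at single time points lay between -0.21 and 0.23 on the log2 scale. The 95% intervals reached 0.08 to 0.25 log2 units to either side of an estimate, so the widest interval, that of Fkbp4 after acute stress, ended at 0.48. In this fit every interval at a single time point thus stayed within 0.5 log2 units of 0. With other processing of the data the Fkbp4 estimate after acute stress ran from 0.11 to 0.41, and the intervals of those fits were not examined.

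Without adjustment, p was under 0.05 for 1 member probe after acute stress, against 4.94% of all probes, for 3 after 8 days (2.39% of all probes), for 2 after 13 days (7.18%) and for 0 after rest (3.56%). In the mean of the 4 time points there were 6 such probes, all lower in stress pools, against 7.48% of all probes. They belonged to Hsd11b1, Crh, Crhr2, Crhbp, Nr3c1 and Ncoa1. Without the 4 pools 1 this count was 3, and it was 0 when the arrays were centred on their median in place of loess. The share of all probes was not counted in those fits, so whether the drop was particular to the members cannot be told. In both fits 0 of all probes were called for this mean. The differences between time points gave 1 member probe with an unadjusted p under 0.05 for 13 days minus acute stress (4.69% of all probes) and 0 for rest minus 13 days (4.94%). In all 3 pools of a time point the ratio had the same direction for 4, 5, 6 and 2 of the 13 member probes in order of time, against 28.4%, 18.6%, 26.5% and 21.0% of all probes. Stress and control levels did not overlap for 0, 2, 1 and 0 member probes, against 5.90%, 2.33%, 6.19% and 3.51% of all probes. The median log2 ratio of the 13 probes was -0.024, -0.034, -0.035 and -0.032 in the same order, where the median over all probes was 0.001, -0.001, -0.001 and -0.002.

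**Figure D1:**
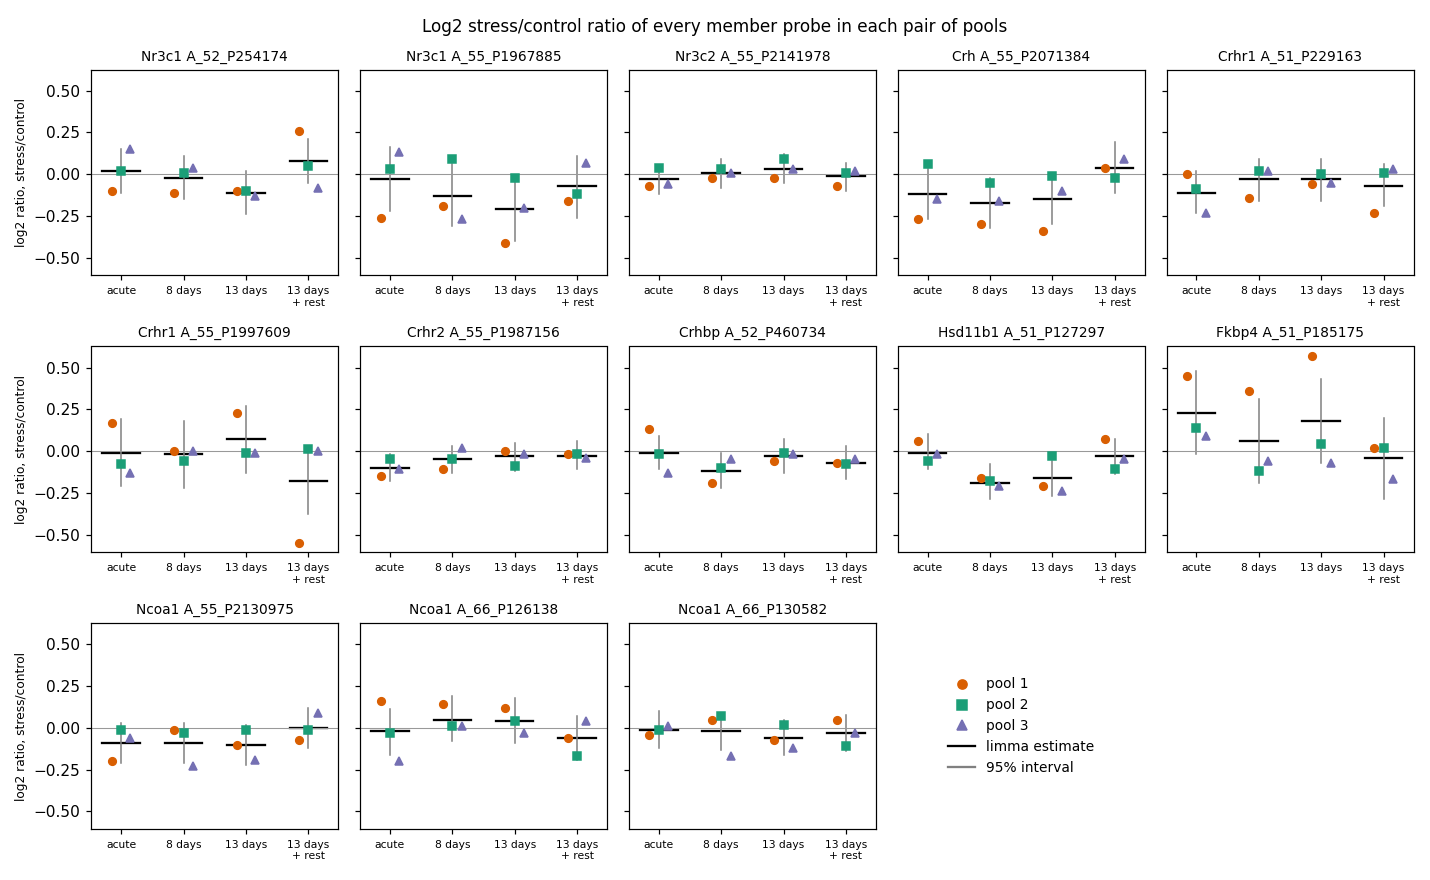
Log2 ratio of stress to control (vertical axis) at the 4 time points (horizontal axis) for each of the 13 member probes. Symbols are the 3 pairs of pools, black bars the limma estimate and grey lines its 95% interval. The estimates lie between -0.21 and 0.23, and the points farthest from 0 are those of pool 1 for Fkbp4 (0.57 after 13 days) and for Crhr1 probe A_55_P1997609 (-0.55 after rest).

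All 13 probes were well above background in both channels on 20 of 20 arrays and none was saturated. Over all probes, 57.9% to 69.5% were well above background in both channels of an array. The SD of the log2 ratio over all probes was 0.151 to 0.174 in the pools 1 and 0.0737 to 0.101 in the pools 2 and 3, and original arrays correlated with their turned dye swaps at r of -0.356 to -0.092. A dye effect was therefore computed for each member probe, as the mean deviation of the original array from the average of original and turned swap.

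Markers of excitatory neurons, interneurons, astrocytes, oligodendrocytes, microglia and endothelium were well above background on every array, while 1 of 5 choroid plexus markers and 4 of 6 olfactory bulb markers were. The summed signal of the 5 red cell markers was 101000 to 123000 in stress pools and 62600 to 74400 in control pools after 8 days, and 143000 to 214000 in stress pools and 57700 to 74300 in control pools after 13 days. After acute stress the 4 oligodendrocyte markers summed to 17100 to 21500 in stress pools and 14300 to 18400 in control pools, and the 4 meningeal fibroblast markers to 3000 to 3410 in stress pools and 3900 to 5830 in control pools. Arrays of tissue RNA measure a mixture, in which fewer cells of a type and less RNA per cell cannot be told apart.

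Hsd11b1, the enzyme that regenerates corticosterone, had the smallest p of the members at 8 and 13 days. Its probe A_51_P127297 (mm9, chromosome 1, 195048169 to 195048228, minus strand) was spotted 10 times on each array. After 8 days its normalized log2 signal was 9.15, 9.13 and 9.23 in stress pools and 9.31, 9.31 and 9.44 in control pools. All stress pools lay below all control pools, and each pair of pools went the same way, with log2 ratios of -0.16, -0.18 and -0.21. The estimate was -0.19 ± 0.048 (SE of the limma fit, n = 3 pools, 0.879 of control), and it ranked 35th by p among 39429 probes, with an adjusted p of 1.

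After 13 days Hsd11b1 had 9.04, 9.14 and 9.19 in stress pools and 9.26, 9.18 and 9.43 in control pools. The log2 ratios of -0.21, -0.03 and -0.24 were again all negative, but the highest stress pool was above the lowest control pool. The estimate was -0.16 ± 0.048 (adjusted p = 0.483). All 10 arrays of 8 and 13 days gave a ratio below 0, from -0.44 to -0.01. A dye swap measures the same pools again, so these arrays are not separate replicates, and how many of all probes did the same was not counted. The size of the ratios differed with the dyes, and the dye effect of the probe was 0.06, with a range of -0.05 to 0.20 over 8 pools. After 8 days the original arrays of pools 2 and 3 gave -0.01 and -0.08, and their swaps -0.36 and -0.35. After 13 days pool 2 gave -0.05 and -0.01 and pool 3 gave -0.05 and -0.44, with the original first. On the original arrays alone the estimate was -0.08 at 8 days (adjusted p = 0.985) and -0.10 at 13 days (adjusted p = 0.458).

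The ratio of Hsd11b1 was near 0 at the other time points. After acute stress it had 9.27, 9.23 and 9.36 in stress pools and 9.21, 9.29 and 9.38 in control pools, with an estimate of -0.01 ± 0.048 and an adjusted p of 0.995. After rest it had 9.47, 9.24 and 9.25 in stress pools and 9.40, 9.35 and 9.31 in control pools, with an estimate of -0.03 ± 0.048 and an adjusted p of 0.999. The groups overlapped at both. The difference of 13 days minus acute stress was -0.16 (SE 0.068) and that of rest minus 13 days 0.13 (SE 0.068), both with an adjusted p of 1, so a difference between the time points was not shown. Over the 12 pairs of pools, 10 were lower in stress, with a mean of -0.10 ± 0.024 and an adjusted p of 0.332, and such counts over all probes were not made. With a dye coefficient the mean was -0.12 (adjusted p = 0.0714), and without the pools 1 it was -0.11 (adjusted p = 0.222).

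At the same time points at which Hsd11b1 was below control in all pools, the red cell marker sum was higher in stress pools by 0.65 to 0.95 on the log2 scale at 8 days and by 1.31 to 1.60 at 13 days. At 13 days the astrocyte marker sum, 9230 to 10400 in stress pools and 11000 to 12100 in control pools, did not overlap either. The endothelium marker sum, 7050 to 8200 in stress pools and 8180 to 9160 in control pools, overlapped narrowly. Within a pair, the log2 ratio of the sums was -0.25 to -0.08 for astrocytes, -0.29 to -0.03 for endothelium and -0.15 to 0 for microglia. Singly, 4 of 5 astrocyte, 2 of 4 endothelium and 3 of 4 microglia markers were lower, and the others were higher. The part of these cell types in the values of Hsd11b1 was not tested.

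**Figure D2:**
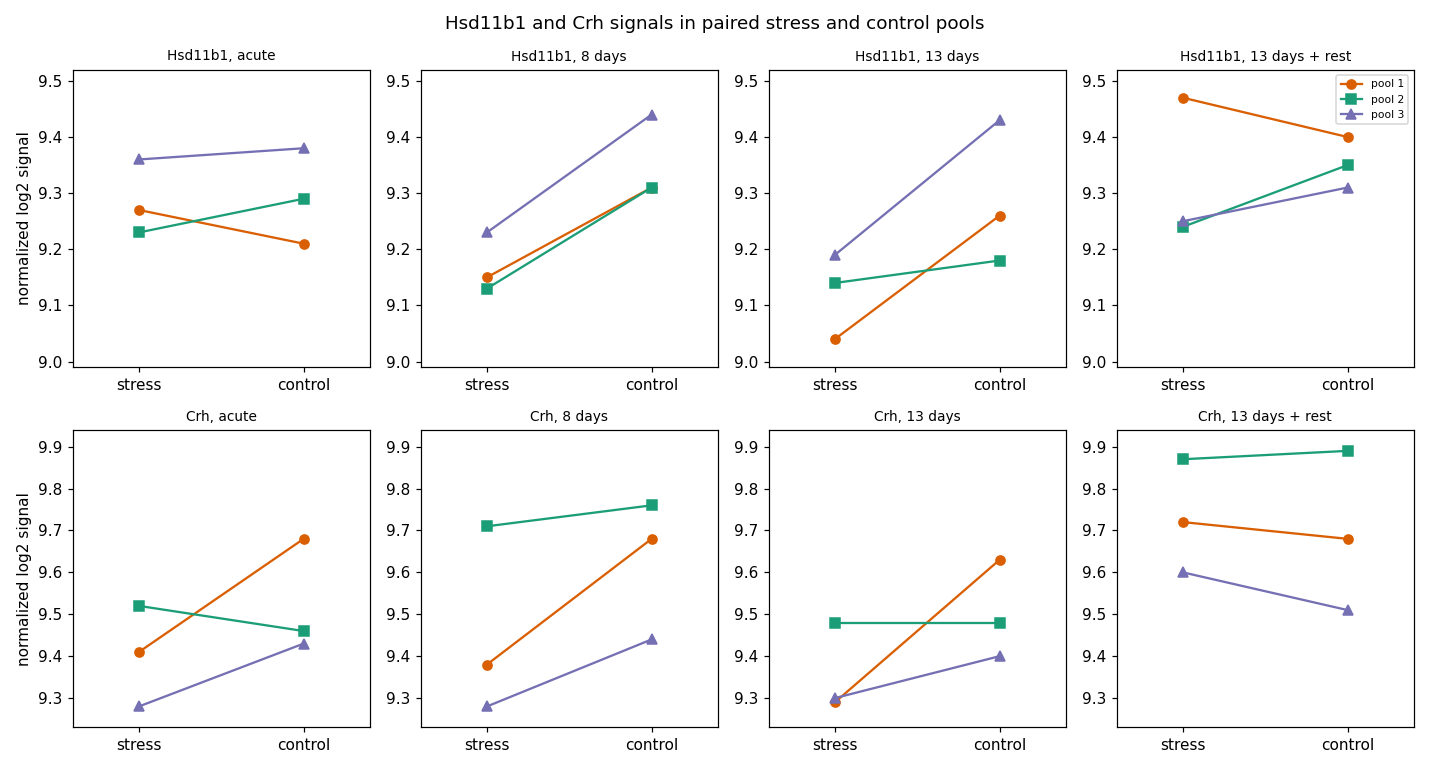
Normalized log2 signal (vertical axis, not starting at 0) of Hsd11b1 (top) and Crh (bottom) in stress and control pools at the 4 time points, with a line joining the pools of a pair. For Hsd11b1 the stress pools of 8 days (9.13 to 9.23) lie below the control pools (9.31 to 9.44), and at the other time points the groups overlap, as they do for Crh at each time point.

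The promoters of Hsd11b1, the member with the smallest p, and of Fkbp4, the member with the highest ratio, are shown with 1 common promoter element each, the CCAAT box, which is bound mainly by NF-Y, and the heat shock element, which is bound by heat shock factor. The 250 bases before the start of each gene in RefSeq (GRCm38.p6) are given on the minus strand, at chr1:193242361-193242610 for Hsd11b1, with a CCAAT box in capitals, and at chr6:128438657-128438906 for Fkbp4, with a heat shock element pair, GAANNTTC, in capitals.
Hsd11b1: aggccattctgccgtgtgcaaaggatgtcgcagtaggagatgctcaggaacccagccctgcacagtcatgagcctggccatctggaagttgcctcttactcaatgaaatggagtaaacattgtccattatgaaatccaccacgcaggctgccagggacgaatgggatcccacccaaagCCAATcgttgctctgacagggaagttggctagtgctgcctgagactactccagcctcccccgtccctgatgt
Fkbp4: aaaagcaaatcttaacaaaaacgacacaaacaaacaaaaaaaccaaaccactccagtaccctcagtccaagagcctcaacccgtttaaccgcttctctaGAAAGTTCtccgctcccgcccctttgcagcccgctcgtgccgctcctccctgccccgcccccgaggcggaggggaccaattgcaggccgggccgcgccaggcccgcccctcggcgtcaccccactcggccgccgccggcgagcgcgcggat
On either strand, CCAAT was present in 33.8% of the 250-base windows of 32851 promoters and in those of Hsd11b1, Fkbp4 and Nr3c2 among the 7 members with an entry. GAANNTTC was present in 6.7% of all windows and in those of Fkbp4 and Nr3c2. The glucocorticoid receptor half-site AGAACA was present in 16.1% of all windows and in 0 of 7 member windows, and the cyclic AMP response element TGACGTCA in 1.5% of all and 0 of 7. These are matches of letters and were not tested for binding.

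Fkbp4, the immunophilin that links the receptor to transport along microtubules, had the highest ratio of the members, but its sign followed the dye. For its probe A_51_P185175 (mm9, chromosome 6, 128380528 to 128380587, minus strand) the log2 signal after acute stress was 9.50, 9.44 and 9.25 in stress pools and 9.05, 9.30 and 9.15 in control pools. The ratios were 0.45, 0.14 and 0.09, and the groups overlapped. The estimate was 0.23 ± 0.11 (adjusted p = 0.976).

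Pool 1, for which no dye swap was analysed here, stood apart for Fkbp4. After 13 days the signal was 9.72, 9.38 and 9.15 in stress pools and 9.16, 9.34 and 9.22 in control pools, so that the ratios of 0.57, 0.04 and -0.07 gave 0.18 ± 0.11 (adjusted p = 0.823). After 8 days the ratios were 0.36, -0.12 and -0.06, and after rest 0.02, 0.02 and -0.17, with adjusted p of 1 and 0.999. On the 12 original arrays, with stress in Cy5, every ratio was above 0 (0.02 to 0.57), and on the 8 dye swaps every ratio was below 0 (-0.43 to -0.12). The dye effect of the probe was 0.21, with a range of 0.10 to 0.47. Without the pools 1 the estimate was 0.11 after acute stress and -0.02 after 13 days, and the mean over time points was 0.11 ± 0.057 over all pools, -0.02 without the pools 1 and 0.01 with a dye coefficient.

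**Figure D3:**
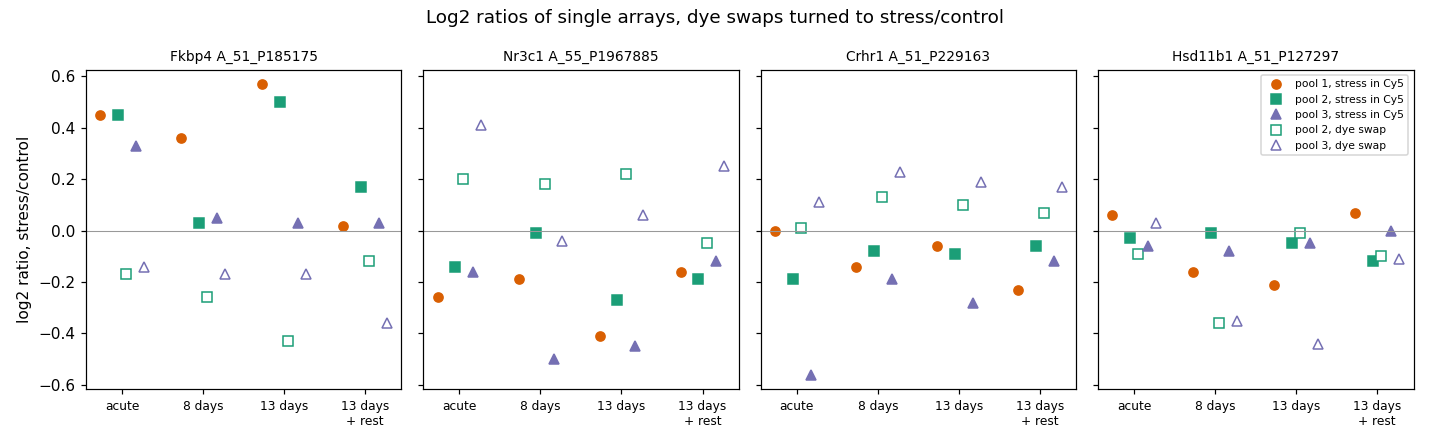
Log2 ratio of stress to control on single arrays (vertical axis) at the 4 time points (horizontal axis) for probes of Fkbp4, Nr3c1, Crhr1 and Hsd11b1. Filled symbols have stress in Cy5 and open symbols are dye swaps turned to the same direction. For Fkbp4 all filled symbols lie above 0 and all open ones below it, and for Crhr1 no filled symbol lies above 0 and no open one below it.

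The chaperones that act on the receptor together with Fkbp4 did not pass the test either. Of the 11 genes of this list, 0 were called higher and 0 lower at any time point. Unadjusted p was under 0.05 for 0, 1, 1 and 2 in order of time, against 4.94%, 2.39%, 7.18% and 3.56% of all probes. Their median log2 ratio was 0.04, -0.01, 0.03 and 0.02 in order of time. Hsp90ab1, the constitutive form of the chaperone Hsp90, had the smallest p of the list. Its ratios were 0.04, 0.04 and 0.06 after acute stress, 0.12, 0.06 and 0.11 after 8 days, 0.03, 0.03 and 0.18 after 13 days and 0.13, 0.02 and 0.15 after rest, so all 12 pools were above 0. How many of all probes had 12 pools on the same side of 0 was not counted, and pools of the same number shared slides. The estimate of Hsp90ab1 after rest was 0.10 ± 0.041, with an adjusted p of 0.999.

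The glucocorticoid receptor, Nr3c1, was measured by 2 probes on chromosome 18 (mm9, minus strand), A_55_P1967885 at 39571641 to 39571700 and A_52_P254174 at 39574183 to 39574242. After 13 days the first had a log2 signal of 11.86, 12.08 and 12.05 in stress pools and 12.27, 12.10 and 12.25 in control pools. No stress pool reached a control pool, although the highest stress pool (12.08) was close to the lowest control pool (12.10). The ratios of -0.41, -0.02 and -0.20 gave -0.21 ± 0.087 (adjusted p = 0.647).

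The second probe of Nr3c1 had 8.76, 8.80 and 9.29 in stress pools and 8.86, 8.90 and 9.41 in control pools at the same time point. Each pair was lower in stress, with ratios of -0.10, -0.10 and -0.13 and an estimate of -0.11 ± 0.061 (adjusted p = 0.779), while the groups overlapped. Both probes thus had 3 of 3 pools below 0 after 13 days. At the other time points they did not have 3 pools in the same direction. Probe A_55_P1967885 had ratios of -0.26, 0.03 and 0.13 after acute stress, -0.19, 0.09 and -0.27 after 8 days and -0.16, -0.12 and 0.07 after rest. Probe A_52_P254174 had -0.10, 0.02 and 0.15 after acute stress, -0.11, 0.01 and 0.04 after 8 days and 0.26, 0.05 and -0.08 after rest. All adjusted p of these were 0.987 or above.

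The dyes also divided the arrays of Nr3c1 probe A_55_P1967885. All 12 original arrays were below 0 (-0.50 to -0.01), 6 of 8 dye swaps were above 0 (-0.05 to 0.41), and the dye effect was -0.19. The estimate at 13 days was -0.13 with a dye coefficient (adjusted p = 0.488), -0.11 without the pools 1 (adjusted p = 0.659) and -0.38 on the original arrays alone (adjusted p = 0.0769). Probe A_52_P254174, with a dye effect of 0.04, was at -0.11 in both the fit with a dye coefficient and that without the pools 1.

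Nr3c2, the mineralocorticoid receptor, stayed closest to 0. Its probe A_55_P2141978 (mm9, chromosome 8, 79766370 to 79766429, plus strand) had estimates of -0.03, 0.01, 0.03 and -0.01 in order of time, each ± 0.039. The ratios were -0.07, 0.04 and -0.06 after acute stress, -0.02, 0.03 and 0.01 after 8 days, -0.02, 0.09 and 0.03 after 13 days and -0.07, 0.01 and 0.02 after rest. The intervals ran from -0.12 at the lowest to 0.12 at the highest, the narrowest of the members together with those of Crhr2. The dye effect was 0.01.

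Ncoa1, a coactivator of steroid receptors, had 3 probes on chromosome 12 (mm9, minus strand). The ratios of A_55_P2130975 and A_66_P130582 had r of 0.57 over 12 pools and 0.65 over the 8 pools with a dye swap. A_66_P126138 had r of -0.18 with the first and 0.11 with the second over 12 pools. A_55_P2130975 (4249455 to 4249514) was lower in 11 of 12 pools, with ratios of -0.20, -0.01 and -0.06 after acute stress, -0.01, -0.03 and -0.23 after 8 days and -0.10, -0.01 and -0.19 after 13 days. Its levels at 8 days did not overlap, but they were close, with 12.17 at the highest in stress pools and 12.18 at the lowest in control pools. The estimates of -0.09, -0.09 and -0.10 (each ± 0.054) had adjusted p of 0.976, 1 and 0.764, and after rest the estimate was 0.00. The share of all probes that were lower in 11 of 12 pools was not counted. A_66_P126138, whose target spans 4249868 to 4253693, had estimates of -0.02, 0.05, 0.04 and -0.06 in order of time, and A_66_P130582 (4247469 to 4247528) had -0.01, -0.02, -0.06 and -0.03. Each had adjusted p of 0.899 or above.

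Among the other coregulators of nuclear receptors, 0 of 11 were called in either direction at any time point. Unadjusted p was under 0.05 for 0, 0, 2 and 0 in order of time, against 4.94%, 2.39%, 7.18% and 3.56% of all probes. Their median log2 ratio was 0.00, 0.02, -0.04 and 0.01 in order of time. Med1, the subunit by which the Mediator complex binds nuclear receptors, had the smallest p. It had ratios of -0.03, -0.10 and -0.19 after 13 days and an estimate of -0.11 ± 0.044 (adjusted p = 0.647).

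Crh itself was below control in most pools before rest and close to it after rest. For probe A_55_P2071384 (mm9, chromosome 3, 19593482 to 19593541, minus strand) the log2 signal after 8 days was 9.38, 9.71 and 9.28 in stress pools and 9.68, 9.76 and 9.44 in control pools. Each pair was lower in stress, with ratios of -0.30, -0.05 and -0.16, but the groups overlapped. The estimate was -0.17 ± 0.07 (0.889 of control, adjusted p = 1).

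After 13 days Crh had 9.29, 9.48 and 9.30 in stress pools and 9.63, 9.48 and 9.40 in control pools. The ratios of -0.34, -0.01 and -0.10 gave -0.15 ± 0.07 (adjusted p = 0.701), and most of this came from pool 1. After acute stress it had 9.41, 9.52 and 9.28 in stress pools and 9.68, 9.46 and 9.43 in control pools, with an estimate of -0.12 ± 0.07 (adjusted p = 0.976). After rest it had 9.72, 9.87 and 9.60 in stress pools and 9.68, 9.89 and 9.51 in control pools, with an estimate of 0.04 ± 0.07 (adjusted p = 0.999). The groups overlapped at each of these time points.

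The difference of rest minus 13 days for Crh was 0.19 (SE 0.099, adjusted p = 1). Over the 12 pairs of pools, 9 were lower in stress, with a mean of -0.10 ± 0.035 (adjusted p = 0.535), and how many of all probes did the same was not counted. Without the pools 1 the estimates were -0.04 after acute stress, -0.10 after 8 days and -0.05 after 13 days, and the mean was -0.04 (adjusted p = 0.659). The dye effect of the probe was 0.04, with a range of -0.10 to 0.13. The summed signal of the 8 interneuron markers at 8 days was 121000 to 133000 in stress pools and 116000 to 128000 in control pools, and the log2 ratio of the sums within a pair was -0.07 to 0.15. Singly, 3 of these markers were higher and 4 lower, with a median log2 ratio of -0.03 and estimates from -0.16 to 0.08. The part of interneurons in the values of Crh was not tested.

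Crhr1, the main CRH receptor of the cortex, was measured by A_51_P229163 (mm9, chromosome 11, 104036691 to 104036750, plus strand) and A_55_P1997609 (104036182 to 104036241). The first had ratios of 0.00, -0.09 and -0.23 after acute stress, with an estimate of -0.11 ± 0.056 (adjusted p = 0.976). Its estimates of -0.03, -0.03 and -0.07 at the later time points had adjusted p of 0.962 or above. The last of these came from pool 1, since the ratios after rest were -0.23, 0.01 and 0.03, and it was 0.02 without the pools 1. The dyes separated its arrays, since 0 of 12 original arrays and 8 of 8 dye swaps were above 0, with a dye effect of -0.16. The second probe had estimates of -0.01, -0.02 and 0.07 before rest, and -0.18 ± 0.093 after rest (adjusted p = 0.999). That value came from pool 1, since the ratios were -0.55, 0.01 and 0.00. The dye effect of this probe was -0.01.

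Crhr2, the receptor that prefers the urocortins, had low but measurable signal. Its probe A_55_P1987156 (mm9, chromosome 6, 55040043 to 55040102, minus strand) had 7.88, 7.97 and 8.03 in stress pools and 8.03, 8.02 and 8.13 in control pools after acute stress. Each pair was lower in stress, with ratios of -0.15, -0.05 and -0.11, and the highest stress pool was level with the middle of the control pools. The estimate was -0.10 ± 0.037 (adjusted p = 0.931). The estimates after 8 days, 13 days and rest were -0.05, -0.03 and -0.03, and 10 of 12 pools were lower in stress. The dye effect was -0.01. How many of all probes had as many pools lower was not counted.

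Crhbp, the binding protein, was lower in 11 of 12 stress pools, by small amounts. After 8 days its probe A_52_P460734 (mm9, chromosome 13, 96201903 to 96201962, minus strand) had 9.55, 9.54 and 9.65 in stress pools and 9.74, 9.64 and 9.71 in control pools. The ratios were -0.19, -0.10 and -0.05 and the groups overlapped. The estimate was -0.12 ± 0.047 (adjusted p = 1). It was -0.01 after acute stress, -0.03 after 13 days and -0.07 after rest. The mean over time points was -0.06 ± 0.023 (adjusted p = 0.648), and the dye effect was 0.01. As for the other members, the share of all probes with 11 of 12 pools on the same side was not counted.

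Of 13 further genes of CRH family ligands and signalling, 0 were called in either direction at any time point. Unadjusted p was under 0.05 for 0, 0, 1 and 0 in order of time, against 4.94%, 2.39%, 7.18% and 3.56% of all probes. Their median log2 ratio was -0.03, -0.03, 0.01 and -0.01. Arrb2, the beta-arrestin that takes part in receptor internalization, had the smallest p. Its ratios were 0.29, 0.12 and 0.13 after 13 days, with an estimate of 0.18 ± 0.061 (adjusted p = 0.541), against estimates of -0.03 after acute stress, -0.12 after 8 days and -0.12 after rest. Of 7 genes of steroid supply and metabolism, 0 were called and 0 had an unadjusted p under 0.05 at a single time point. Abcb1a, the efflux pump of the blood-brain barrier, had the smallest p, with ratios of 0.23, 0.03 and 0.07 after 8 days and an estimate of 0.11 ± 0.054 (adjusted p = 1).

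Genes that glucocorticoids are known to induce were also not called, with 0 of 17 in either direction at any time point. The list includes Fam107a, which was not called here and was not among the 4 genes with an unadjusted p under 0.05 after acute stress. The paper reported it as raised after acute stress, on the arrays and by qPCR of individual mice. With the same stated thresholds the paper listed many more transcripts at this time point, where 1 of 39429 probes was called here. The lack of a call is therefore not by itself a disagreement with the paper. Without adjustment, p was under 0.05 for 4, 2, 6 and 0 of the 17 in order of time, against the 4.94%, 2.39%, 7.18% and 3.56% of all probes. They went both ways. After acute stress the estimates were 0.35 for Mt1 and 0.28 for Mt2, both metallothioneins, 0.28 for Plin4 and -0.26 for the cell cycle inhibitor Cdkn1a. After 8 days they were 0.31 for Mt1 and -0.16 for the transcription factor Klf9. After 13 days they were 0.32 for the phosphatase Dusp1 and 0.24 for the clock gene Per1, and -0.19 for Klf9, -0.14 for the kinase Pdk4, -0.14 for the transcription factor Zbtb16 and -0.14 for Cdkn1a. Apart from Plin4, these genes were named after their values were seen, and their adjusted p was 0.517 or above. Over the 17 genes, the median log2 ratio was 0.01, -0.01, 0.03 and 0.01 in order of time, with estimates from -0.30 to 0.36. Plin4, a lipid droplet protein, had the smallest p, with ratios of 0.28, 0.39 and 0.17 after acute stress and an estimate of 0.28 ± 0.064 (adjusted p = 0.428). At the later time points its estimates were 0.02, 0.03 and 0.03.

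The genes whose log2 ratios resembled those of a member most closely were found over 12 pools among 21102 probes that were well above background on all arrays, with the brightest probe per member. The points share the single dye orientation of pool 1, so r over the 8 pools with a dye swap is given too. For Hsd11b1 they were Rapgef6 (r = 0.91, and 0.83 over 8 pools), Pgs1 (0.90 and 0.87) and Tmem229a (0.89 and 0.94). For Crh they were Apln (0.96 and 0.84), Dlx2 (0.93 and 0.85), a transcription factor of interneuron development, and Hspb3 (0.91 and 0.79). For Fkbp4 they were Atg16l1, Nme6 and Dusp12, each at 0.97 over 12 pools and at 0.81, 0.79 and 0.84 over 8. These are descriptions of 12 points among many probes.

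For the receptors, Nr3c1 probe A_55_P1967885 was most like Ncaph2 (r = 0.98, and 0.99 over 8 pools), A230050P20Rik (0.97 and 0.98) and Trim37 (0.96 and 0.95). The other Nr3c1 probe had r of only 0.28 with this one (0.27 over 8 pools), so the likeness is that of 1 probe. Nr3c2 was most like 4930430D24Rik (0.90 and 0.86), Ifna12 (0.89 and 0.84) and Gm15645 (0.88 and 0.85). Crhr1 probe A_51_P229163 was most like 1700001L19Rik (0.87 and 0.84), Celf6 (0.85 and 0.75) and NAP111644-1 (0.85 and 0.86), and Crhr2 most like C330046G03Rik (0.85 and 0.63), Ap1s1 (0.83 and 0.74) and NAP092475-001 (0.83 and 0.75). Crhbp was most like Gdpd5 (0.91 and 0.77), Ddx3y (0.90 and 0.38) and Tm9sf4 (0.89 and 0.75). Ncoa1 probe A_55_P2130975 was most like Wbp11 (0.91 and 0.97), Son (0.91 and 0.96) and Capns1 (0.91 and 0.89), and the other Ncoa1 probes followed it only in part, as given above. The r of Ddx3y with Crhbp fell most without the pools 1.

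Members also resembled each other only in part. The 2 probes of Crhr1 had r of 0.62 over 12 pools and 0.86 over the 8 with a dye swap, whereas those of Nr3c1 had 0.28 over 12 pools. Crh and Fkbp4 had r of -0.79 over 12 pools and -0.07 over 8. Crh and Nr3c1 probe A_55_P1967885 had 0.66 over 12 pools and 0.41 over 8. The strongest pair over 12 pools, Nr3c1 probe A_52_P254174 and Crhr1 probe A_55_P1997609, had -0.82, and -0.63 over 8. Other pairs rose over the 8 pools, as Nr3c1 probe A_55_P1967885 and Ncoa1 probe A_66_P130582 did from 0.50 to 0.91. These are examples from all pairs of member probes.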

How the data were processed

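Gene expression was measured on Agilent 4x44K v2 mouse arrays with 2 colours. The deposited scanner tables hold the intensity and local background of each spot, as the authors obtained them from Agilent Feature Extraction without normalization, and a log10 ratio of red over green that the same software corrected for background and dye. The authors' value tables hold log2 ratios of stress over control, with swaps turned. In R 4.3.3 with limma 3.58.1, intensities were corrected by normexp (offset 50) and normalized by loess and Aquantile, with control and outlier spots at weight 0. Replicate spots were averaged (43020 spots, 39429 probes). The ratio of a dye swap was multiplied by -1 and averaged with that of its original array, and 12 pools were fitted with a coefficient per time point, which share an estimate of the spread. Pools are of separate mice. An SE is that of the fit, whose prior degrees of freedom were 4.86, so 3 pools per time point limit the precision. Contrasts, the adjustment over 39429 probes and the thresholds of a call (adjusted p 0.05, log2 ratio 0.5 in size) follow the same fit. Members, lists and tests were chosen with earlier results of these data known. Named genes are all members, per list the gene with the smallest p (brightest probe), and the 3 genes of highest r per member. All 13 member probes matched a RefSeq symbol. Probe positions are those of the array tables (mm9), and exons and UTRs were not analysed here. The procedure was tested on simulated data. Alternatives changed background, normalization, spots, filter, variance model, blocks, dyes and pools.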

Additional observations from a re-analysis of the deposited data

How the results depend on the processing

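No member probe was called in any of 7 contrasts under any of 30 alternatives, while the number of all probes called ran from 0 to 67 for acute stress, 0 to 26 for 8 days, 0 to 18 for 13 days and 0 to 46 for rest. Leaving out 1 pool at a time gave 0 member probes throughout. Pools of the same number held different mice but shared slides and a scan day at all time points, so the number marks a batch. Their deviations correlated at -0.116 to 0.508, and 9 of 12 pools correlated best with their own number. With the pool number as a replicate block, 0 member probes were called, and the smallest adjusted p of a member was 0.0778, for Hsd11b1 in the mean of the time points. With the slide as a block it was 0.0942, and 0 member probes were called. On the 12 original arrays alone the adjusted p of the mean was under 0.05 for Nr3c1 probe A_55_P1967885 (-0.24, adjusted p = 0.00232), Fkbp4 (0.25, adjusted p = 0.0074) and Crhr1 probe A_51_P229163 (-0.17, adjusted p = 0.0299), the 3 probes with the largest dye effects, and none reached 0.5 in size. Estimates larger than their SE changed sign in 10 instances. With median centring in place of loess after acute stress, Crh was at 0.01, Crhr1 probe A_51_P229163 at 0.05 and Ncoa1 probe A_55_P2130975 at 0.09. Without the pools 1, Fkbp4 was at -0.02 after 13 days, and after rest Nr3c1 probe A_52_P254174 was at -0.01 and Crhr1 probe A_51_P229163 at 0.02. Leaving out 1 pool of that time point gave -0.02 to 0.30, -0.01 to 0.15 and -0.11 to 0.02 for the same 3 estimates, with the changed sign in each case without pool 1. The mean of Fkbp4 was -0.02 without the pools 1. Hsd11b1 stayed below 0 under every alternative at 8 days (-0.32 to -0.08) and 13 days (-0.26 to -0.09). So did Crh (-0.23 to -0.09 and -0.22 to -0.05) and Nr3c1 probe A_55_P1967885 (-0.24 to -0.04 and -0.38 to -0.11). Ncoa1 probe A_55_P2130975 also stayed below 0 (-0.20 to -0.01 and -0.15 to -0.05), and Crhr2 did not rise above 0. The alternatives reuse the same pools and are not separate tests. The fit to pools 1 and 2 only, of the first scan day, was chosen after seeing the data. The cause of these changes was not tested. Member probes were well above background on 20 of 20 arrays, and whether signal limits the estimates was not tested.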
